A study of Mus musculus with 12 samples.

Results

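The CCN family comprises 6 genes of the mouse, Ccn1 to Ccn6, taken from the table of gene values by symbol (older names Cyr61, Ctgf, Nov, Wisp1, Wisp2 and Wisp3). All 6 were found among 54532 Ensembl genes. RNA-Seq was performed on poly(A) RNA of abdominal aorta, infrarenal by the study's text, from 12 male mice in 4 groups of 3. CCN2fl/fl mice carried floxed Ccn2 and no Cre and received saline (CFS) or Ang II (CFA). CCN2SMCΔ mice carried the same floxed gene with Myh11-Cre-ERT2, which deletes it in Myh11-expressing SMC after tamoxifen and leaves other cells of the wall intact, and received saline (CSS) or Ang II (CSA). All 4 groups had 5 doses of tamoxifen from 8 weeks of age and a washout of 2 weeks, and infusion by mini-osmotic pump lasted 7 days, with Ang II at 500 ng/kg/min. The comparisons ask how the relatives of Ccn2 stood when Ccn2 was deleted in SMC, at rest and under Ang II. After this infusion the study reports infrarenal aneurysms in nearly all CCN2SMCΔ mice. In CCN2fl/fl mice it reports mild ones, thoracic or suprarenal, in only a few. Whether each sequenced aorta held an aneurysm is not given in the sources used here. In comparisons of CSA, the deletion and aneurysm of the wall cannot be told apart.

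CCN proteins are secreted matricellular proteins, which sit in the extracellular matrix without being structural parts of it. They carry modules that bind growth factors, matrix and cell surface integrins, and so alter how cells read their surroundings. In the vessel wall, CCN1 and CCN2 are known as products of stretch, YAP and TGF-β signaling, CCN3 as a restraint on SMC growth, CCN4 as a Wnt-induced member and CCN5 as a member that limits SMC motility. CCN5 lacks the C-terminal cystine-knot module found in the others.

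Each transcript was identified on GRCm38 with the GENCODE M21 annotation, and each member has 5 exons. Ccn1 (ENSMUSG00000028195) lies on the minus strand at chr3:145646976-145649981 and encodes 379 amino acids. Ccn2 (ENSMUSG00000019997) lies on the plus strand at chr10:24595442-24598683 and encodes 348. Ccn3 (ENSMUSG00000037362, chr15:54745702-54754039) and Ccn4 (ENSMUSG00000005124, chr15:66891320-66923201) lie on the plus strand of 1 chromosome and encode 354 and 367. Ccn5 (ENSMUSG00000027656, plus strand, chr2:163820861-163833146) encodes the shortest protein, of 251 amino acids. Ccn6 (ENSMUSG00000062074, minus strand, chr10:39150970-39163794) encodes 354. The longest exact stretch that transcripts of any 2 members share was 28 bases, between Ccn2 and Ccn3, against reads of 150 bases. Antisense genes overlap 23.2% of the exonic bases of Ccn2 (Gm15270, 0 to 0.211 FPKM) and 34.0% of those of Ccn6 (Tube1, 0.0345 to 0.371 FPKM), and the strand used in counting is not given in the sources used here.

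RefSeq promoters of GRCm38.p6 were matched for 2 of the 6 members, Ccn1 and Ccn6. Both are shown, Ccn1 as an abundant member and Ccn6 as the member under 1 FPKM in every mouse. Each runs 5′ to 3′ from 250 bases before to 50 bases after the start, on the minus strand. Capitals mark matches, on either strand, to the TEAD motif GGAATG, the CRE core TGACG or the SMAD-binding letters CAGAC, none of which overlapped each other.
Ccn1, chr3:145649936-145650235: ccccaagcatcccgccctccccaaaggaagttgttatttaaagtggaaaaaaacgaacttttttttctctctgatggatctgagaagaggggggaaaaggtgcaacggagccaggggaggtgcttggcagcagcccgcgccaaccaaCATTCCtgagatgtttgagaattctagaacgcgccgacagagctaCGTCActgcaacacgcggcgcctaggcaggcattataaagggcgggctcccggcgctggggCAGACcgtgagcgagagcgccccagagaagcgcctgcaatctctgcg
Ccn6, chr10:39163745-39164044: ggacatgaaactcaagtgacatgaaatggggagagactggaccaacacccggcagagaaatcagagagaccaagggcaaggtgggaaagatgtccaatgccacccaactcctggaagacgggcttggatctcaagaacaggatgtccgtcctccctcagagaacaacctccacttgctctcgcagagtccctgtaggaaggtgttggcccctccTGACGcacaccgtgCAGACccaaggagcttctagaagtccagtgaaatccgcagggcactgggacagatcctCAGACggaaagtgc
The Ccn1 window holds a TEAD match on the opposite strand from base 148, a CRE core on the opposite strand from base 193 and SMAD-binding letters from base 254. The Ccn6 window holds a CRE core from base 215 and SMAD-binding letters from bases 229 and 287, and the TEAD letters are not in it. Of 32851 promoters of this length, 14.7% hold the TEAD motif, 20.8% the CRE core and 49.6% the SMAD-binding letters. The AP-1 motif TGANTCA (7.81% of promoters) and the CArG box (1.63%) are in neither window. These matches describe the letters only.

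Levels are given in FPKM, which corrects fragment numbers for exon length and library size, so levels may be compared between members. Fragments recovered from them numbered 14558549 to 23107760 per mouse. The CSA library of mouse 03, the shallowest, stood apart from those of its group. Its root mean square difference of log2(FPKM + 0.1) was 1.21 and 1.20 from the CSA mice 01 and 02, which lay 0.505 apart, whereas pairs within the other groups lay 0.586 to 0.743 apart. Several results are therefore also given without that mouse. Markers of SMC, 10 genes with Myh11 and Acta2 among them, summed to 5750 to 10617 FPKM in CFS, CSS and CFA and to 844 to 1003 in CSA. In CSA all 10 were called lower than in CFA, with a median log2 fold change of −2.99. Macrophage markers summed to 275 to 752 FPKM outside CSA and to 2391 to 2743 in CSA, with 9 of 10 called higher (median log2 fold change 2.68). In whole tissue, fewer cells of a type and less RNA per cell cannot be told apart. The part of these markers in the results on CCN genes was not tested.

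Ccn2 (Ctgf), the targeted gene, whose product is known to promote matrix formation together with TGF-β, was the most abundant member on average over the 12 mice (636 FPKM). In CFS it stood at 709.5, 1108 and 480.1 FPKM in mice 68, 69 and 70, and in CFA at 1013, 1105 and 564 FPKM in mice 71, 72 and 74. In CSS it stood at 436, 639.9 and 587 FPKM in mice 54, 55 and 56, and in CSA at 255, 331 and 399 FPKM in mice 01, 02 and 03. All 3 CSA mice lay below every other mouse, while the CSS mice lay within or just below the range of CFS. The order of the group means was CFA (894 ± 290 FPKM, SD, n = 3), CFS (766 ± 318), CSS (554 ± 106) and CSA (328 ± 71.9), and only CSS and CSA among these neighbours did not overlap. Values add up all exons of the gene, and which of them the floxed allele removes is not given in the sources used here, so transcripts lacking an exon would still be counted. By qPCR after the same Ang II infusion, the study reports a larger fall of total CCN2 mRNA than these means of CFA and CSA give. Its blots showed less CCN2 protein in CCN2SMCΔ aorta under saline as well as Ang II. Why the measures differ was not tested.

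**Figure D1:**
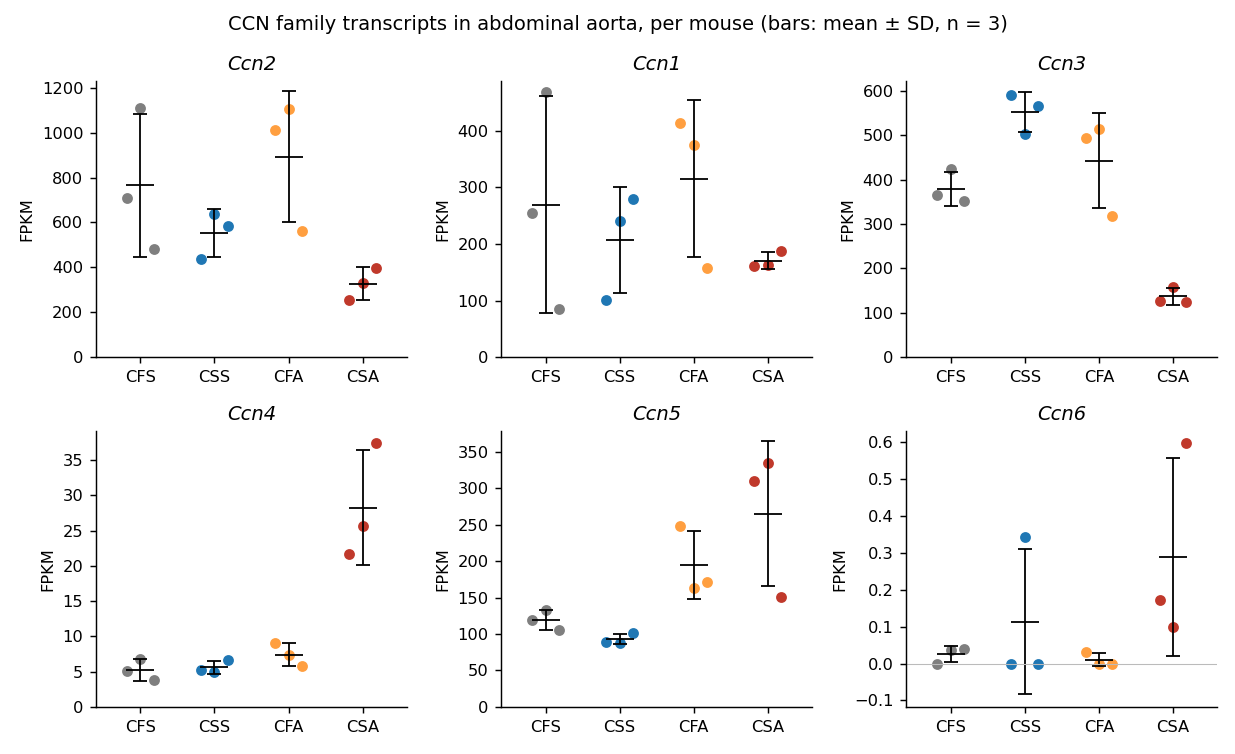
FPKM of each CCN transcript (vertical axes, a separate scale for each gene) in the 4 groups, with 1 point per mouse and bars for mean ± SD of 3 mice. Ccn2 and Ccn3 are lowest in CSA, Ccn4 is highest there, Ccn5 is split between 151 and 334 FPKM there, Ccn1 spreads widely outside CSA, and Ccn6 stays under 0.6 FPKM.

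The level of Ccn2 in CSA was 0.367 times that in CFA, and it fell by 1.41 on the log2 scale (SE 0.34, limma adjusted p = 0.00622). For a gene to be called, limma had to give an adjusted p under 0.05 and a log2 fold change beyond 1.5 in either direction, and Ccn2 met the first and missed the second. It passed both without CSA mouse 03 (log2 fold change −1.56), without CFA mouse 74 (−1.71) and with array weights (−1.61). Over all alternatives the value ranged from −1.71 to −1.23, the smallest change being that without CFA mouse 72. Between CSS and CFS the ratio of means was 0.723, with a log2 fold change of −0.40 (95% confidence interval −1.14 to 0.34, adjusted p = 1), which was −0.094 without CFS mouse 69 and −0.70 without CFS mouse 70. Ang II left Ccn2 of CCN2fl/fl mice at a log2 fold change of 0.25 (interval −0.49 to 0.99, adjusted p = 0.929). Between CSA and CSS it was −0.76 (interval −1.5 to −0.019, adjusted p = 0.0871), which passed the adjusted p with array weights (−0.85, adjusted p = 0.0136) and with only those groups in the fit (adjusted p = 0.0405). The genotype effect under Ang II differed from that under saline by −1.01 (SE 0.47, adjusted p = 0.148), and with array weights by −1.26 (adjusted p = 0.0211).

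Ccn3 (Nov), a member known to restrain SMC growth, was the second most abundant member on average over the 12 mice, and in CSA it stood below Ccn2, Ccn5 and Ccn1. It stood at 365, 423 and 351 FPKM in CFS mice 68, 69 and 70, and at 493, 514 and 319 FPKM in CFA mice 71, 72 and 74. CSS mice 54, 55 and 56 had 589, 503 and 566 FPKM, and CSA mice 01, 02 and 03 had 127.6, 158 and 124.6 FPKM. The CSA mice lay below all others and close together, and the CSS mice lay above all 3 CFS mice. The group means ran from CSS (553 ± 44.9 FPKM) through CFA (442 ± 107) and CFS (379 ± 38.4) to CSA (137 ± 18.6), where CSS overlapped CFA and CFA overlapped CFS, while CFS and CSA did not overlap. From CFA to CSA it fell by 1.67 on the log2 scale (SE 0.19, limma adjusted p = 5.0e-05), and from CSS to CSA by 2.02 (SE 0.19, adjusted p = 9.4e-06). Without Ang II the difference had the other sign. The CSS mice exceeded the CFS mice with a log2 fold change of 0.54 (SE 0.19, unadjusted p = 0.0153, adjusted p = 0.618), which did not pass. The difference between the 2 genotype effects was −2.21 (SE 0.27, limma adjusted p = 2.4e-04) and passed. Myh11 and the other SMC markers, which fell beside Ccn3 in CSA, did so with log2 fold changes of −4.28 to −1.88.

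Ccn4 (Wisp1), a Wnt-induced member, was higher in CSA than in the other groups. It had 5.07, 6.82 and 3.82 FPKM in CFS mice 68, 69 and 70, and 5.22, 4.94 and 6.65 FPKM in CSS mice 54, 55 and 56. CFA mice 71, 72 and 74 had 9.07, 7.40 and 5.81 FPKM, and CSA mice 01, 02 and 03 had 21.7, 25.6 and 37.5 FPKM. Every CSA mouse was above every other mouse, and the other 3 groups overlapped. The order was CSA (28.3 ± 8.21 FPKM), CFA (7.42 ± 1.63), CSS (5.60 ± 0.917) and CFS (5.24 ± 1.505), and only the first of these neighbouring pairs was separated. CSA exceeded CFA by 3.81-fold in means, or 1.90 on the log2 scale (SE 0.26, limma adjusted p = 1.8e-04), and CSS by 2.29 (SE 0.26, adjusted p = 3.6e-05). The saline comparison of genotypes gave 0.12 (95% confidence interval −0.45 to 0.69, adjusted p = 1) and the Ang II response of CCN2fl/fl mice 0.51 (interval −0.06 to 1.08, adjusted p = 0.602). That response was 0.31 without CFS mouse 70 and 0.72 without CFS mouse 69. The 2 genotype effects differed by 1.78 (SE 0.37, limma adjusted p = 0.00482). With array weights this difference was 1.41, with an adjusted p of 0.00181, and so under the fold limit. Without CSA mouse 03, the highest, Ccn4 was still higher in CSA than in CFA, by 1.68 (adjusted p = 3.4e-04). Macrophage markers rose beside Ccn4 in CSA, as given above.

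**Figure D2:**
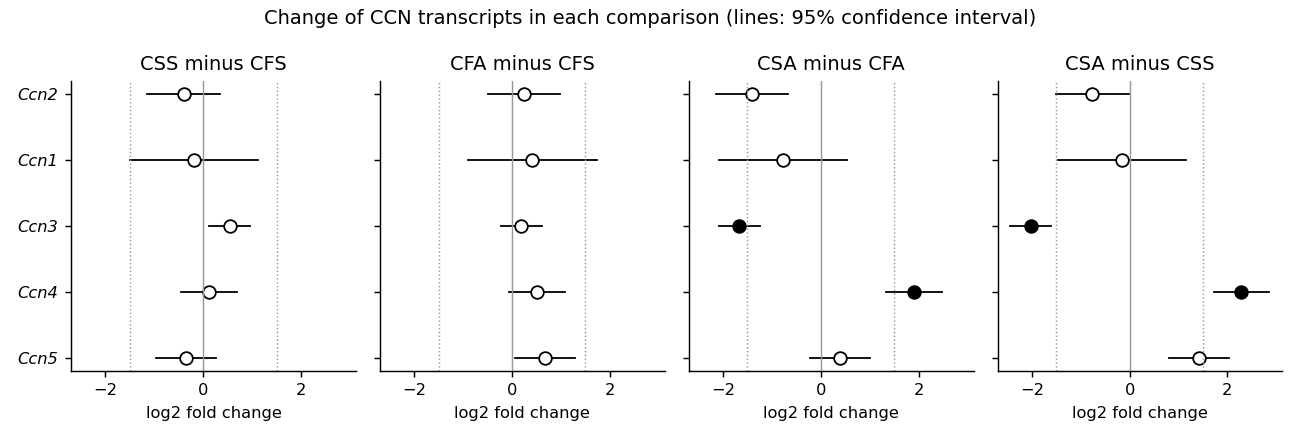
Log2 fold change of the 5 tested members (rows) in the 4 comparisons (panels), from limma on log2(FPKM + 0.1). Lines are 95% confidence intervals, filled points passed both limits of the call, and dotted lines mark the limit of 1.5, so that Ccn3 and Ccn4 are filled in both comparisons of CSA and no member is filled in the others.

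Ccn5 (Wisp2), the member without the cystine-knot module, was higher in every Ang II mouse than in every saline mouse. CFS mice 68, 69 and 70 had 119.6, 134 and 106 FPKM, and CSS mice 54, 55 and 56 had 89.6, 88.0 and 101.4 FPKM. CFA mice 71, 72 and 74 had 248, 163 and 172 FPKM, and CSA mice 01, 02 and 03 had 311, 334 and 151 FPKM. Within CSA, mouse 03 lay below all CFA mice while the other two lay above them. The order was CSA (265 ± 99.9 FPKM), CFA (194 ± 46.5), CFS (119.6 ± 13.9) and CSS (93.0 ± 7.30), and only CSA and CFA overlapped. The comparison of CSA with CFA gave a log2 fold change of 0.39 (SE 0.28, limma adjusted p = 0.289), and without CSA mouse 03 it gave 0.76 (SE 0.18, adjusted p = 0.00522). With all 12 mice and array weights it was 0.57 (adjusted p = 0.00947). Against CSS, CSA was higher by 1.43 (SE 0.28, adjusted p = 0.00152), under the fold limit, and over it both without that mouse (1.79, adjusted p = 1.7e-05) and with array weights on all 12 mice (1.78, adjusted p = 1.1e-06). The Ang II response of CCN2fl/fl mice was 0.68 (SE 0.28, unadjusted p = 0.0328, adjusted p = 0.466) and did not pass, except with array weights (0.88, adjusted p = 0.0195). The saline comparison of genotypes was −0.36 (95% confidence interval −0.97 to 0.25, adjusted p = 1). The effect of genotype under Ang II exceeded that under saline by 0.75 (SE 0.39, adjusted p = 0.193), by 1.11 without CSA mouse 03 (adjusted p = 0.00471) and by 0.91 with array weights (adjusted p = 0.00644). Fibroblast markers, such as Col1a1 and Dcn, summed to 1644 to 2564 FPKM in the saline groups, 2964 to 3290 in CFA and 4689 to 5533 in CSA, and their part in the level of Ccn5 was not tested. These 10 genes went in both directions, with log2 fold changes of −2.20 to 1.44 in CSA against CFA, and limma called 0 of them higher and 1 lower (Scara5), with 8 past the adjusted p alone.

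Ccn1 (Cyr61), an immediate early product of stretch and growth factors, varied widely between the mice of each group other than CSA. CFS mice 68, 69 and 70 had 255, 468 and 85.4 FPKM, a spread of 5.48-fold, and CSS mice 54, 55 and 56 had 102, 240.3 and 279.8 FPKM. CFA mice 71, 72 and 74 had 413, 375 and 157 FPKM, whereas CSA mice 01, 02 and 03 had 161, 163 and 188 FPKM. The coefficient of variation was 71.2% in CFS, 45.2% in CSS, 44.0% in CFA and 8.76% in CSA. The group means ran in the same order as for Ccn2, from CFA (315 ± 138 FPKM) through CFS (269.5 ± 192) and CSS (207 ± 93.6) to CSA (170.4 ± 14.9), and all neighbours overlapped. The comparison of CSA with CFA gave a log2 fold change of −0.77 (95% confidence interval −2.08 to 0.54, limma adjusted p = 0.329), which was −0.51 without CFA mouse 71 and −1.21 without CFA mouse 74. In the comparisons CSS with CFS, CFA with CFS and CSA with CSS the log2 fold changes were −0.19, 0.42 and −0.16, with adjusted p of 1, 0.934 and 0.847. These intervals are wide enough to hold a change of more than 1 log2 unit in either direction in CSS against CFS (−1.51 to 1.12) and in CSA against CSS (−1.47 to 1.15). CFS mouse 70, the lowest for Ccn1, also had the highest sum of adipocyte markers, 855 FPKM against 119.8 to 367 in the other mice outside CSA, and their part was not tested.

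The levels of Ccn1 and Ccn2 ran in parallel across the mice outside CSA. Over the 9 mice of CFS, CSS and CFA, Pearson's r of their log2 levels was 0.914 (exact permutation p = 0.0013, Benjamini-Hochberg adjusted p = 0.0078 over 6 relations) and Spearman's rho was 0.917 (exact permutation p = 0.00131, adjusted p = 0.00786). CSA was left out because its Ccn2 lay below that of all other mice. The permutations exchanged mice freely between groups, CSS with the deletion among them. Over all 12 libraries Ccn2 was not among the 8 genes most like Ccn1, of which the last had r = 0.768. Among the 9 mice, without the 2 farthest from the median of Ccn1 (CFS 70 and CSS 54), r was 0.892. On values of the 9 mice centred on each group mean it was 0.951. The other 5 relations set each tested member beside the summed FPKM of 16 immediate early genes, such as Fos, Egr1 and Jun, which respond to stimuli within minutes. That sum was highest in CFS mouse 69 (1199 FPKM), the mouse with the highest Ccn1 and Ccn2. Pearson's r over the 9 mice was 0.526 for Ccn1 (exact permutation p = 0.145, adjusted p = 0.435) and 0.362 for Ccn2 (p = 0.35, adjusted p = 0.700), with Spearman's rho of 0.367 (exact permutation p = 0.336, adjusted p = 0.524) and 0.3 (p = 0.437, adjusted p = 0.524). Without CFS mouse 69 and CSS mouse 55, r was 0.313 and −0.0220. For Ccn3, Ccn4 and Ccn5 r was 0.169, 0.124 and −0.277 and rho was 0.317, −0.100 and −0.533, and the lowest exact permutation p of the 6 was 0.148 (adjusted p = 0.444). On values centred on each group mean, r was 0.912 for Ccn1, 0.864 for Ccn2, 0.834 for Ccn4, 0.612 for Ccn5 and 0.396 for Ccn3, as a description without a test, and for Ccn5 the sign turned.

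**Figure D3:**
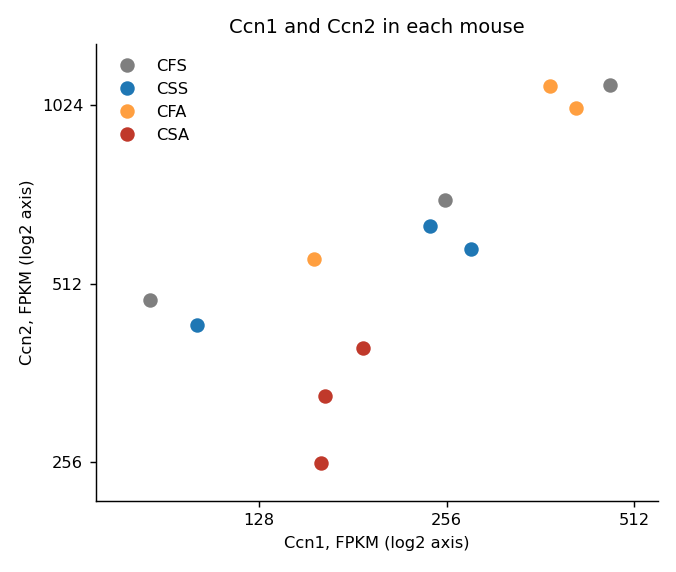
Ccn1 (horizontal axis) and Ccn2 (vertical axis) in FPKM on log2 axes, 1 point per mouse, colored by group. Ccn2 climbs with Ccn1 over the 9 mice outside CSA (r = 0.914), and the 3 CSA mice lie below that band at a Ccn1 of 161 to 188 FPKM.

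Ccn6 (Wisp3) was close to absent. It was recovered as 0, 1 and 1 fragments in CFS mice 68, 69 and 70, 0, 9 and 0 in CSS mice 54, 55 and 56, and 1, 0 and 0 in CFA mice 71, 72 and 74. CSA mice 01, 02 and 03 had 5, 3 and 13 fragments, equal to 0.174, 0.0997 and 0.598 FPKM. A value of 0 allows up to 3 fragments, counting error only. Ccn6 reached 1 FPKM in 0 of 12 mice and so did not pass the filter. Without a filter, limma gave CSA against CFA a log2 fold change of 1.62 (SE 0.61, unadjusted p = 0.0237, adjusted p = 0.0936). The CSA mice were above the CFA mice, and CSS mouse 55 (0.342 FPKM) lay within the range of CSA. Its overlapping neighbor Tube1 was also highest in CSA (0.283 to 0.371 FPKM). Chondrocyte markers, 8 genes with Col2a1 and Acan among them, summed to 9.49 to 11.5 FPKM in CFS, 19.4 to 21.7 in CSS, 30.9 to 38.3 in CFA and 34.1 to 57.2 in CSA. The sums of CFA and CSA overlapped. Of the 4 genes that reach the filter outside CSA, 0 were called higher and 1 lower in CSA against CFA. That was Chad, at 14.9 ± 4.89 FPKM in CFA and 2.11 ± 0.853 in CSA. The part of these markers in the level of Ccn6 was not tested.

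Across the family, 5 of 6 members passed the filter of at least 1 FPKM in at least 3 libraries. In CSA against CFA, 2 of these 5 were called, 1 lower (Ccn3) and 1 higher (Ccn4), where 17.2% of 14676 tested genes were called (8.95% higher and 8.27% lower). By the adjusted p alone, 3 members passed, beside 40.7% of all genes. With 5 members, a count of 2 does not set the family apart from that background. In CSA against CSS 2 of 5 were called (Ccn3 lower, Ccn4 higher) beside 20.3% of genes, and 3 by the adjusted p alone beside 46.2%. For the difference of the genotype effects, 2 of 5 were called (Ccn3 and Ccn4) beside 15.2%, and the same 2 by the adjusted p alone beside 26.4%. In CSS against CFS limma called 0 of 5 members beside 0.0136% of genes. In CFA against CFS it called 0 of 5 beside 0.0273%. The groups did not overlap for 3 of 5 members in CSA against CFA (48.5% of all genes), for 4 in CSA against CSS (55.4%), for 2 in CSS against CFS (20.4%) and for 1 in CFA against CFS (20.2%). A 2-sided exact permutation test of mean FPKM, which with 3 mice against 3 cannot go below 0.1, gave 0.1 for each of these members. By absolute log2 fold change in CSA against CFA, Ccn4 ranked 2084, Ccn3 2507, Ccn2 3033, Ccn1 5601 and Ccn5 8880 of 14676, with a median absolute change over all genes of 0.54. Comparisons of CSA with CFA and with CSS share the CSA mice, as those of CSS and CFA with CFS share the CFS mice.

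As FPKM is per length, the levels of the relatives were also added for each mouse. The sum of Ccn1, Ccn3, Ccn4, Ccn5 and Ccn6 was 744, 1032 and 546 FPKM in CFS mice 68, 69 and 70, and 786, 836 and 954 FPKM in CSS mice 54, 55 and 56. It was 1164, 1059.8 and 653 FPKM in CFA mice 71, 72 and 74, and 621, 681 and 501 FPKM in CSA mice 01, 02 and 03. The relatives were thus not more abundant in CSA than in CFA, and the ranges overlapped. The mean was 601 ± 91.8 FPKM in CSA and 959 ± 269.9 in CFA (exact permutation p = 0.2), a difference of −358 FPKM beside −566 for Ccn2. By member, that difference was made up of −145 FPKM for Ccn1, −305 for Ccn3, 20.9 for Ccn4, 70.9 for Ccn5 and 0.280 for Ccn6. Without CSA mouse 03 the difference was 128 FPKM for Ccn5 and −153 for Ccn1, −299 for Ccn3, 16.2 for Ccn4 and 0.126 for Ccn6. Under saline the means were 859 ± 86.5 FPKM in CSS and 774 ± 244.5 in CFS (exact permutation p = 0.6), with Ccn3 higher by 173 FPKM, Ccn1 lower by a difference of −62.3 and Ccn5 by −26.6, while Ccn2 differed by −212. In limma, 0 of the tested members passed the adjusted p in CSS against CFS (0.618 for Ccn3). The log2 fold change of Ccn2 there was −0.094 without CFS mouse 69. The whole family summed to 929 ± 73.1 FPKM in CSA, 1413 ± 169 in CSS, 1853 ± 551 in CFA and 1539.9 ± 562 in CFS.

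The make-up of the family differed in CSA. Ccn2 held 46.3% to 51.8% of the summed FPKM in each CFS and CFA mouse, 35.7% to 43.3% in CSS and 29.1% to 44.3% in CSA. Ccn3 held 34.1% to 48.3% in CSS, the largest member in 1 of the 3 mice there, and 13.9% to 15.6% in CSA. Ccn5 held 5.96% to 14.1% in the 9 mice outside CSA, and 35.5%, 33.0% and 16.7% in CSA mice 01, 02 and 03. In CSA mice 01 and 02 it was thus above Ccn2. Ccn4 held 0.319% to 0.477% outside CSA and 2.48% to 4.17% in CSA. Ccn1 held 16.1% to 20.9% in CSA, within its range of 8.32% to 21.9% elsewhere.

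**Figure D4:**
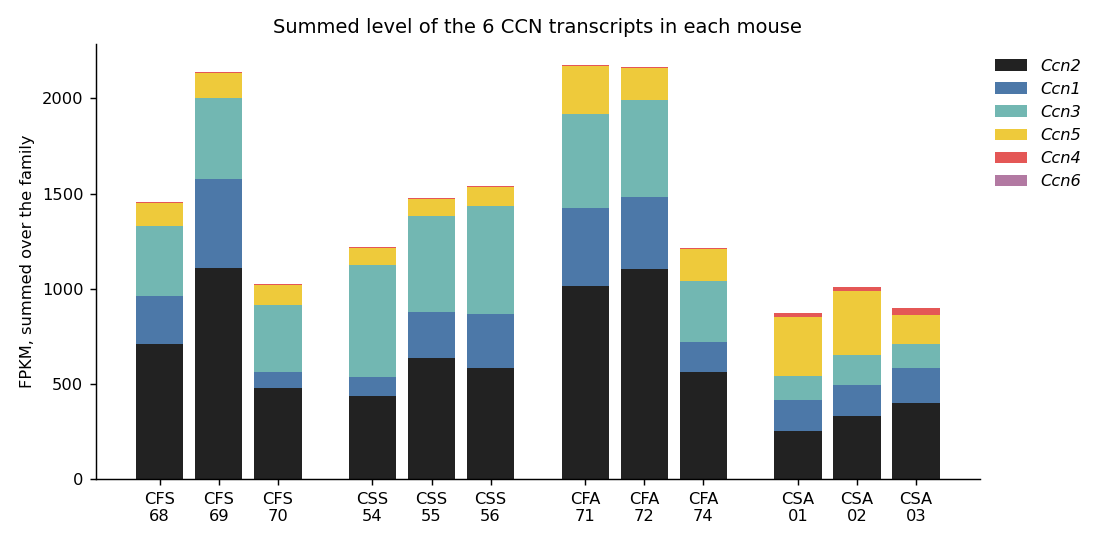
FPKM of the 6 CCN transcripts stacked for each mouse (horizontal axis, group and mouse number), from 0. The 3 CSA bars are the lowest, between 876 and 1012.5 FPKM, and a larger share of each is Ccn5 and a smaller share Ccn3 than in the bars of the other groups.

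Genes with the most similar pattern were sought by Pearson's r of log2 levels over the 12 libraries. Those closest to Ccn2 were Fam114a1 (r = 0.939) and Mpv17l (0.914), and those closest to Ccn1 were Fam162a (0.831), Gm23369 (0.807) and Fam172a (0.803). Ccn3 had Mical2 (0.987), Susd5 (0.984) and Kctd10 (0.982), Ccn4 had Aif1 (0.983), Plek (0.983) and Ubash3b (0.981), and Ccn5 had C1qtnf6 (0.958), D430019H16Rik (0.945) and Mfap2 (0.940). For Ccn2, Ccn3 and Ccn4 the CSA mice lie at 1 end of the scale, and these values describe the 12 libraries only.

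Partners of the CCN proteins were followed in lists. Counts of calls in CSA against CFA, in every list, stand beside 17.2% of all tested genes (8.95% higher and 8.27% lower). By the adjusted p alone that share was 40.7%. Of 16 receptors, 14 were tested in CSA against CFA. Itgam passed the filter on low values only through the CSA mice and is given by its levels, 1.61 ± 1.09 FPKM in CFA and 18.8 ± 4.64 in CSA. Of the other 13, 2 were called higher, 1 lower and 10 neither, with a median log2 fold change of −0.40 beside −0.04 over all genes, and the median of all 14 was −0.38 (−0.21 without CSA mouse 03). The 2 were Itgb2 (8.18 ± 4.25 FPKM in CFA and 70.01 ± 3.99 in CSA, log2 fold change 3.20, adjusted p = 1.9e-05) and Itga6 (3.03 ± 0.630 and 14.2 ± 3.39 FPKM, 2.19, adjusted p = 1.5e-04). Itgam and Itgb2 form an integrin of myeloid cells, and macrophage markers were higher beside them. The single receptor called lower was Itgb3, which pairs with αv in the integrin best known to bind CCN proteins (log2 fold change −1.90, SE 0.26, adjusted p = 2.0e-04), named after its values were seen. Its partner Itgav gave −0.13 (adjusted p = 0.479), and Itgb5 and Itgb1 gave −0.74 and −0.93 (adjusted p = 0.00355 and 0.00215), under the fold limit. Of 15 growth factors and matrix proteins that CCN modules bind, 13 were tested and 1 was called, Hspg2 (perlecan, 129 ± 19.4 FPKM in CFA and 41.3 ± 17.8 in CSA, log2 fold change −1.73, adjusted p = 7.4e-04). Without CSA mouse 03 it gave −1.32, under the fold limit. The median of that list was −0.74.

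Of 19 upstream regulators of CCN transcription, all were tested. Limma called 0 higher and 2 lower, beside 8.95% and 8.27% of all genes (median 7.1e-04, and −0.064 without CSA mouse 03). By the adjusted p alone 6 passed, beside 40.7% of all genes. Both called genes passed the fold limit with CSA mouse 03 but not without it, while the adjusted p passed either way. Tead3, a DNA-binding partner of YAP, gave −2.20 (SE 0.58, adjusted p = 0.0108) and Srf, the serum response factor, −1.57 (SE 0.38, adjusted p = 0.00626). Without that mouse they gave −1.27 (limma adjusted p = 2.8e-05) and −0.995 (adjusted p = 1.1e-04), under the fold limit. Yap1 itself gave −1.04 (SE 0.10, adjusted p = 1.7e-05) and its paralog Wwtr1 −0.77 (SE 0.15, adjusted p = 0.00172), both under the fold limit. Agtr1a, the Ang II receptor, gave −0.31 (adjusted p = 0.33). Of 20 YAP and TEAD targets outside the family, 19 were tested, and 3 were called higher and 1 lower, beside 8.95% and 8.27% of all genes. By the adjusted p alone 10 passed, beside 40.7%. With 19 genes, a count of 4 does not set the list apart from that background. The median of the list, −0.26 (−0.41 without CSA mouse 03), had the sign of Ccn2. Of the 4 called, 3 had a sign opposite to that of Ccn2. Igfbp3 (2.40, adjusted p = 0.00208), Nuak2 (2.37, adjusted p = 1.7e-04) and Gadd45a (1.77, adjusted p = 4.5e-05) were higher. Arhgef17 was lower (−1.59, adjusted p = 2.3e-04), and without CSA mouse 03 it gave −1.30, under the fold limit. Ankrd1 and Amotl2, classic targets, gave 0.85 (adjusted p = 0.187) and −0.52 (adjusted p = 0.0563).

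All 16 immediate early genes were tested, 2 were called higher and 2 lower, and the median was −0.40 (−0.13 without CSA mouse 03). Fosb (−2.27, adjusted p = 0.00271) and Jund (−1.78, adjusted p = 0.0252) were lower and Myc (1.83, adjusted p = 8.2e-04) and Egr2 (1.68, adjusted p = 0.00224) higher, and without CSA mouse 03 Jund gave −0.91, under the fold limit, while Junb was called higher (1.89, adjusted p = 2.1e-04), which made 3 higher and 1 lower. All 14 other matricellular proteins, secreted like CCN proteins, were tested, of which Thbs4 passed the filter only through the CSA mice. Of the other 13, 2 were called higher, 4 lower and 7 neither, with a median of −0.71 (−0.85 without CSA mouse 03, which left the counts at 2 and 4), and the median of all 14 was −0.50. Spp1 (osteopontin) went from 20.04 ± 21.3 FPKM in CFA to 463 ± 114 in CSA (5.03, adjusted p = 1.3e-04) and Thbs2 from 15.5 ± 2.29 to 104 ± 25.4 (2.72, adjusted p = 1.0e-05). Tnxb went from 34.8 ± 8.43 to 4.77 ± 1.57 FPKM (−2.87, adjusted p = 8.8e-06). The others called were Sparcl1 (−2.39), Fbln5 (−1.82) and Smoc1 (−1.77). In CSS against CFS and in CFA against CFS limma called 0 genes of any of these 6 lists, beside 0.0136% and 0.0273% of all genes.

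**Figure D5:**
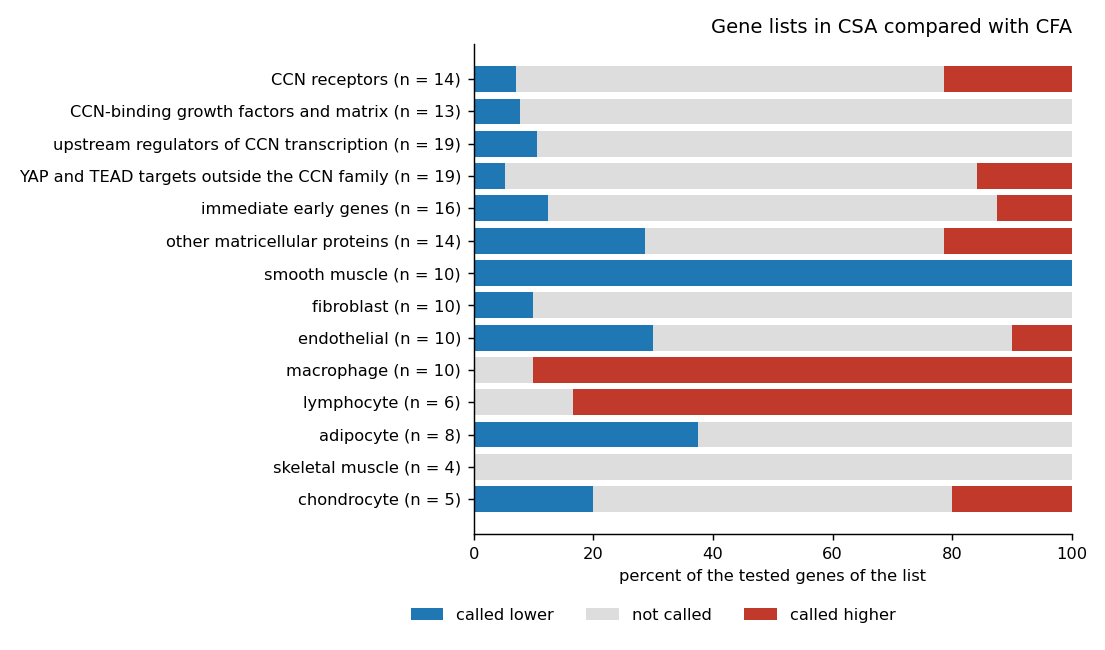
Share of the tested genes of each list (rows, n tested in brackets) that limma called lower, did not call or called higher in CSA compared with CFA. All 10 SMC markers are lower and 9 of 10 macrophage markers higher, whereas the 6 lists of CCN partners and regulators and of related genes hold calls of 1 or both directions beside a majority or an equal share of genes that were not called. All 6 tested lymphocyte markers and 1 gene each among the chondrocyte markers, the receptors and the other matricellular proteins passed the filter only through the CSA mice.

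Among the remaining markers, 1 of 10 fibroblast genes, Scara5, was called lower and 0 higher in CSA against CFA by limma (median log2 fold change 0.46, and 0.13 without CSA mouse 03). Of 10 endothelial genes 3 were called lower (Pecam1, Vwf and Tek) and 1 higher (Emcn, not called without CSA mouse 03), with a median of −0.60 (−0.31 without that mouse). Lymphocyte markers, 8 genes with Cd3d and Cd3g among them, summed to 0.675 to 5.89 FPKM outside CSA and to 23.6 to 31.7 in CSA. Of these, 6 were tested, all of which passed the filter only through the CSA mice, and 3 were tested without CSA mouse 03. Of 8 adipocyte genes 3 were called lower (median −2.004), of 4 tested skeletal muscle genes 0 were called by limma (median −1.82, and −1.14 without CSA mouse 03), and of 5 tested chondrocyte genes 1 was called lower (Chad). Matn3, at 1.28 ± 0.269 FPKM in CSA and 0.221 ± 0.152 in CFA, passed the filter only through the CSA mice and was not tested without CSA mouse 03. Skeletal muscle markers summed to 180.4 FPKM in CFS mouse 68 and 277 in CSS mouse 55, against 3.32 to 6.30 in the other 10 mice. Endothelial markers were low in CFS mouse 69 (118 FPKM against 453.5 and 455 in the other CFS mice), which was the highest for Ccn1 and Ccn2. The part of these cell types in the levels of the CCN genes was not tested.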

How the data were processed

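RNA-Seq libraries of abdominal aorta from 12 male mice were analysed, with group and mouse number taken from the labels and 0 columns of the table left unused. The authors deposited FPKM, 1 value per gene and mouse, without pooling. The submitters' processing notes name HISAT2 2.0.5, StringTie 1.3.3b, featureCounts 1.5.0-p3 and mm10. The scaling between libraries is not described in the sources used here. GENCODE M21 on GRCm38 gave symbols and exon lengths, with which 98.05% to 98.53% of values under 100 fragments were whole within 0.05. Replicates are separate mice, and 3 per group limit precision.

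Values were tested as log2(FPKM + 0.1) with limma 3.58.1 in R 4.3.3 (eBayes with trend and robust settings, 1 coefficient per group, all 12 libraries, no covariate) over the 14676 genes with at least 1 FPKM in at least 3 libraries, which was checked on simulated data. Benjamini-Hochberg adjustment of p-values ran over all genes tested, within each comparison. Fold changes on this scale understate those of low genes. Tables, exact permutation tests and figures used Python 3.11.15, pandas 2.3.3, numpy 2.4.6, scipy 1.17.1 and matplotlib 3.10.9. The text names all 6 members, the 3 genes most like each tested member, and up to 3 called genes with the largest change in CSA against CFA per pathway list. A gene that this rule selects is not reported here. Other genes of the lists, such as Itgb3, Egr2, Junb, Arhgef17, Yap1, Sparcl1 and Emcn, were named after their values were seen. The 6 pathway lists are CCN receptors, CCN-binding growth factors and matrix, upstream regulators, YAP and TEAD targets, immediate early genes and other matricellular proteins, and the 8 marker lists cover SMC, fibroblasts, endothelium, macrophages, lymphocytes, adipocytes, skeletal muscle and chondrocytes. The members and lists were chosen with earlier results of these data known.

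Alternatives were a pseudocount of 1, no filter, a filter at a mean of 5 FPKM, scaling by median of ratios or to equal totals, plain eBayes, array weights, a fit restricted to the groups compared, no fold limit, and leaving out each mouse. Counts of the lists and FPKM differences of the members without CSA mouse 03, and counts of the lists over genes that reach the filter outside CSA, were added after the data were seen.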

Additional observations from a re-analysis of the deposited data

Results flagged for a closer look

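The genotype effect on 2 members differed between Ang II and saline by a test of the difference itself, the interaction term in limma. For Ccn3 the effect of the deletion under Ang II minus that under saline was −2.21 on the log2 scale (adjusted p = 2.4e-04), with all 3 CSA mice below all 3 CFA mice and all 3 CSS mice above all 3 CFS mice. For Ccn4 it was 1.78 (adjusted p = 0.00482), with all 3 CSA mice above all 3 CFA mice and the CSS and CFS mice overlapping. In the interaction 15.2% of all tested genes were called. Groups did not overlap for 48.5% of all tested genes in CSA against CFA and for 20.4% in CSS against CFS. The difference of Ccn3 between CSS and CFS did not itself pass (limma adjusted p = 0.618).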

How the results depend on the processing

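Ccn3 and Ccn4 kept their direction and passed both limits in CSA against CFA and in CSA against CSS under every alternative run, and Ccn2 kept an adjusted p under 0.05 in CSA against CFA (0.000413 to 0.0276). The log2 fold change of Ccn5 in CSA against CFA, 0.39, passed the adjusted p with array weights (0.57) and ranged from 0.18 to 0.76 when 1 mouse was left out, passing without CSA mouse 03. With array weights the number of members called for the difference of genotype effects was 1 in place of 2. Ccn6 gave 1.62 in CSA against CFA without a filter (limma adjusted p = 0.0936), and its mean log2 level differed by 0.33 with a pseudocount of 1. The sum of the relatives differed by −511 to −255 FPKM with 1 mouse left out. Signs that turned on 1 mouse, in comparisons that passed no test, were those of Ccn1 in CSS against CFS (−0.86 to 0.36), CFA against CFS (−0.25 to 0.97), CSA against CSS (−0.61 to 0.12) and the difference of genotype effects (−1.13 to 0.096), of Ccn2 in CFA against CFS (−0.048 to 0.56) and of Ccn4 in CSS against CFS (−0.082 to 0.33). Within those ranges Ccn1 gave 0.26 without CSS mouse 54 and 0.012 without CSS mouse 55, and Ccn4 −0.0062 without CSS mouse 56. The cause was not tested. Scaling to equal totals moved the median of all genes in CSA against CFA by 0.078, from −0.037 to 0.041. It changed the direction of no tested member. No paired analysis was possible because the groups share no replicate numbers, and the difference of genotype effects cannot be fitted with only 2 groups. Depth limits Ccn6 alone among the members.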
